A study of Mus musculus with 2 samples.

Results

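Ring1B, a Polycomb protein, was mapped by ChIP-chip in ES cells, the embryonic stem cells of the mouse, and the genes described here are 9 members of the HoxA cluster on chromosome 6: Hoxa2, Hoxa3, Hoxa4, Hoxa5, Hoxa6, Hoxa9, Hoxa10, Hoxa11 and Hoxa13. Their probes were found by gene name in the annotation of the arrays, with no threshold on a measured value. They are 9 of 16908 genes with at least 3 probes, and 346 of 474222 usable probes carried their names. Chromatin of formaldehyde-fixed ES cells was immunoprecipitated with a monoclonal antibody to Ring1B, and this DNA (IP, labelled with Cy5) was hybridised together with DNA of the chromatin before immunoprecipitation (input, labelled with Cy3), both after amplification by linker-mediated PCR. The labels give no genotype, strain or treatment and name no ES cell line. Their titles name ES cells although the source names begin with Muscle, and the titles were followed. The 2 arrays are separate slides of a promoter set with 0 probes in common, so every gene was measured on 1 array of 1 immunoprecipitation, without a dye swap or a mock immunoprecipitation. No replicate of any value exists, nothing could be tested, and every SD below is taken over the probes of a gene on 1 array.

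Hox genes encode homeodomain transcription factors that give cells their position along the head-to-tail axis. They lie in 4 clusters, and their order on the chromosome follows the order in which they are used along the body, from Hoxa2 in the hindbrain and branchial arches to Hoxa13 in the digits and urogenital tract. Ring1B, encoded by Rnf2, is an E3 ubiquitin ligase of Polycomb repressive complex 1, which places ubiquitin on histone H2A. Polycomb repressive complex 2 methylates histone H3 at lysine 27. Hox clusters are classical targets of both complexes in cells that do not express them.

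All 9 genes were tiled on array 1, which had 237054 usable probes, and 0 of their probes were on array 2. Values are the log2 ratio of IP over input, minus that of the median probe of the same array, so that 0 is the median probe and 1 is 2-fold above it. On this array, 77.2% of all probes had IP signal well above background and 74.1% had input signal so. Having 1 array limits the precision of each value. Probe positions are those of the array file, and its genome build is not given here by any source used.

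Most of the HoxA cluster carried more Ring1B-precipitated DNA than the rest of the array. Of the 9 genes, 7 reached a mean log2 ratio of 1, against 1.99% of all 16908 genes. 0 of the 9 had a mean of -1 or less, against 1.85% of all genes. The median HoxA gene stood at 1.41, 2.66-fold above the median probe, and the median of all genes was -0.10. The genes ranged between -0.48 at Hoxa3 and 2.13 at Hoxa11, with an SD over the 9 genes of 0.74. Hoxa4 and Hoxa3 were the 2 genes below 1.

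Of 348 probes tiled for the 9 genes, 2 were marked as outliers and 346 were used. At 233 of them, or 67.3%, the log2 ratio was at least 1, against 17.7% of all probes of the array. A ratio above 0 was found at 89.9% of the HoxA probes and 50.0% of all probes. Only 13 HoxA probes, or 3.76%, stood at -1 or less, against 20.4% of the array. The median HoxA probe had 1.46, and 116 probes exceeded a log2 ratio of 2. The 4 probes above 4 belonged to Hoxa11 and to the stretch upstream of Hoxa2.

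Both channels were brighter at HoxA than elsewhere, IP more than input. The median IP signal of the HoxA probes was 2657 intensity units, against 353 for all probes of the array, a ratio of 7.53. The median input signal was 776 at HoxA and 291 over the array, a ratio of 2.67. Input was not well above background at 5.49% of the HoxA probes and at 25.9% of all probes. Signals lay at the floor of the scale in both channels at 1.73% of the HoxA probes and at 18.2% of all probes. 0 HoxA probes were saturated. Across the 346 HoxA probes, the ratio correlated with log2 input signal at Pearson r = -0.13 and Spearman rho = -0.14, against -0.47 and -0.46 across all 237054 probes of the array. These are descriptions, since all probes share 1 array and input is the denominator of the ratio. Under loess normalization within the array, which fits the ratio against signal strength, the count of HoxA genes at or above 1 was 7, as it was without probes of dim input.

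**Figure D1:**
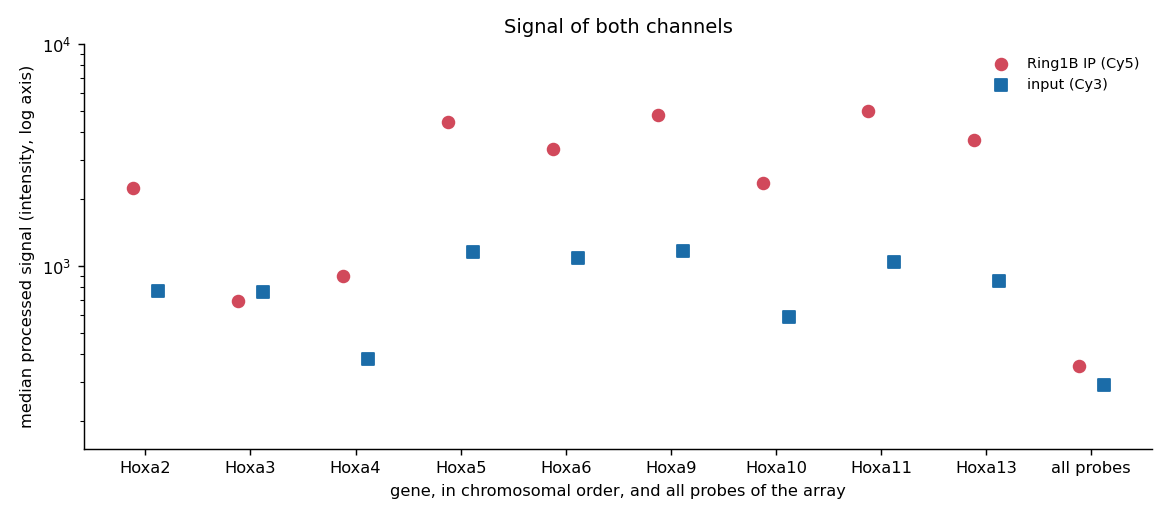
Median processed signal (intensity, log axis) of the probes of each HoxA gene and of all probes of array 1, with Ring1B IP as circles and input as squares. IP lies above input at 8 genes and below it at Hoxa3 (696 against 762), and both channels are close over all probes (353 against 291).

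Along the chromosome, high ratios ran over most of the tiled length of the cluster, broken by dips and by gaps in the tiling. Between the first Hoxa2 probe and the last Hoxa13 probe the array spanned 103961 bp, of which 70332 bp were tiled with 384 probes and 33629 bp fell in 6 gaps of at least 1000 bp. The running mean over the probes within 500 bp on either side was at least 1 at 301 of 381 positions, or 79.0%, against 8.50% of the positions over the whole array. Runs of at least 3 such probes formed 19 regions that covered 51160 bp, which is 72.7% of the tiled length. The longest ran for 10132 bp, from the 5' flank of Hoxa9 over the microRNA gene mmu-mir-196b into Hoxa10, and held 57 probes with a mean of 1.64. The next was the whole tiled stretch of Hoxa11, 7967 bp with 43 probes and a mean of 2.13. No run of at least 3 probes had a running mean of -1 or less.

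**Figure D2:**
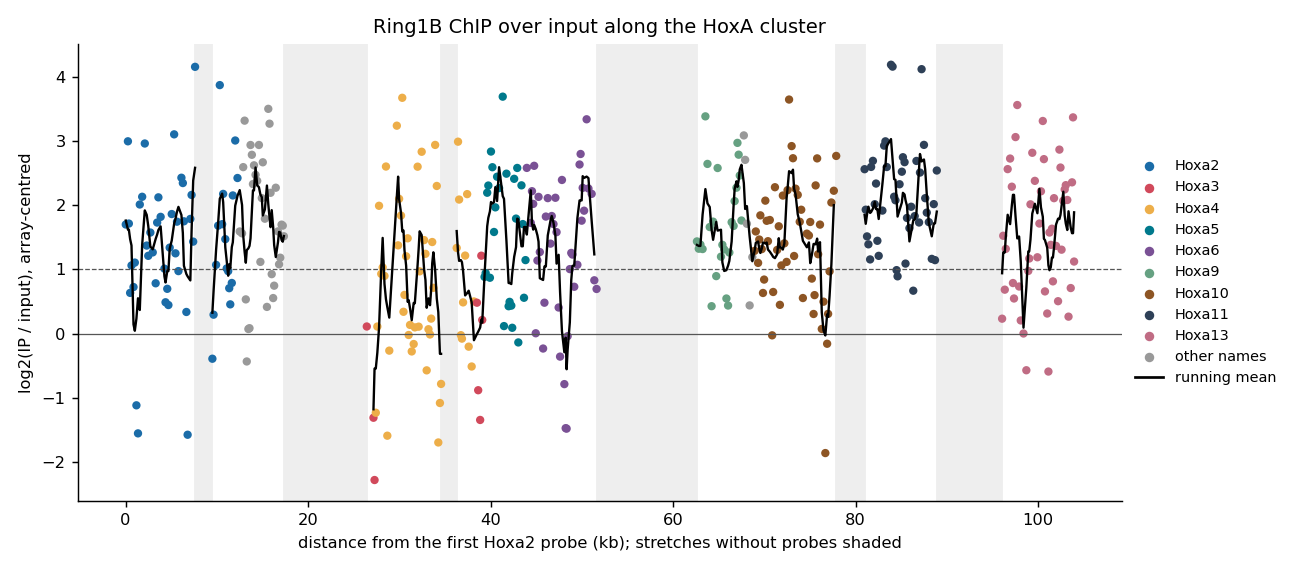
Log2 ratio of IP over input (y axis) of each probe against its distance from the first Hoxa2 probe in kb (x axis), coloured by gene, with the running mean as a black line and gaps in the tiling shaded. The running mean is above 1 over most of the cluster, peaks at 3.03 in Hoxa11 and has its lowest value, -1.18, at the Hoxa3 probes beside Hoxa4.

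The gaps in the tiling set a limit on what can be said between genes. The longest, 10940 bp, separates the probes of Hoxa6 and Hoxa9, and another of 9032 bp lies between 5730596B20Rik and Hoxa3. Between Hoxa11 and Hoxa13 7100 bp were without probes, and between Hoxa10 and Hoxa11 3053 bp. Where probes did exist, their median spacing was 169 bp. Adjacent probes of the cluster within 300 bp of each other differed by a median of 0.69 on the log2 scale, and those of the array by 0.80.

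Hoxa11, which acts in the forearm, the kidney and the uterus, had the highest mean of the cluster. Its 43 probes (chr6:52206723-52214689) averaged 2.13 ± 0.83 (SD over probes), 4.38-fold above the median probe, with a lowest value of 0.67, a median of 2.02 and a highest of 4.19. All 43 were above 0, and 40 were at or above 1. Among all 16908 genes, 7 including Hoxa11 had a mean as high. The median IP signal of its probes was 5014, against a median input signal of 1042. Probes within 1000 bp of its start averaged 2.56, and 10 of 10 were at or above 1.

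The Hoxa11 array probes with the highest and the lowest log2 ratios are printed with every CG dinucleotide in capitals. This was done because CG-rich promoters are known as Polycomb targets in mammals. The letters are those of the array file, and the distances count from the gene start given there. The array probes that matched RefSeq promoter windows of HoxA genes read the strand opposite to the gene.
Hoxa11, chr6:52209619-52209667, 507 bases upstream, log2 ratio 4.19: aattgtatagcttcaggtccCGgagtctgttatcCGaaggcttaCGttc
Hoxa11, chr6:52209794-52209839, 680 bases upstream, log2 ratio 4.16: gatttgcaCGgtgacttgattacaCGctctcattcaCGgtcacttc
Hoxa11, chr6:52212967-52213021, 3858 bases upstream, log2 ratio 4.12: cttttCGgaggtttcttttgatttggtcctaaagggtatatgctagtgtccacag
Hoxa11, chr6:52210333-52210391, 1226 bases upstream, log2 ratio 0.89: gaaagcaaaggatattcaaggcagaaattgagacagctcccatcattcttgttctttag
Hoxa11, chr6:52212060-52212104, 2946 bases upstream, log2 ratio 0.67: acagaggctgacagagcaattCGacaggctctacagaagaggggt
The first of these had an IP signal of 30875, against an input signal of 1444.5. The probe of lowest ratio had an IP signal of 4402, against an input signal of 2363, and so lay above the median probe too. The 2 probes of highest ratio hold 3 CG each and lie close together, while the probe at 4.12 holds 1 CG and lies much farther upstream.

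Hoxa9, a regulator of blood progenitors, followed at 1.71 ± 0.78 over 25 probes (chr6:52188354-52193279). Its probes ran between 0.43 and 3.38 with a median of 1.66, and all 25 were above 0. Hoxa10, which acts in the lumbar spine and the uterus, had 1.41 ± 0.94 over 51 probes (chr6:52194670-52203669), with 36 at or above 1. Hoxa13, needed for digits and the urogenital tract, had 1.56 ± 1.05 over 47 probes (chr6:52221790-52229730), with 31 at or above 1. Taken with Hoxa11, these 4 posterior genes had a median probe of 1.71, with 128 of 166 probes, or 77.1%, at or above 1 and 1 probe at -1 or less. The 3 anterior genes, Hoxa2, Hoxa3 and Hoxa4, had a median probe of 1.07. Of their 114 probes, 61, or 53.5%, reached 1, and 10 stood at -1 or less. Over the whole array, 20.4% stood so low. The anterior share was uneven, with 69.1% reaching 1 at Hoxa2, 43.1% at Hoxa4 and 12.5% of the 8 Hoxa3 probes. Among the posterior genes this share was 66% at Hoxa13, 70.6% at Hoxa10, 84% at Hoxa9 and 93% at Hoxa11. Hoxa2 thus lay within the posterior range, and the difference between the groups was not tested.

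Hoxa10 held both a high and a low point. Its probe of highest ratio lay 167 bp upstream of the start at 3.65, with an IP signal of 7811 against an input signal of 532. The probe of lowest ratio lay 4140 bp upstream at -1.86, with an IP signal of 251 against an input signal of 777. It belongs to a run of 5 probes with a mean of -0.23, after which the last Hoxa10 probe before the gap reached 2.77. Their sequences follow.
Hoxa10, chr6:52198449-52198502, 167 bases upstream, log2 ratio 3.65: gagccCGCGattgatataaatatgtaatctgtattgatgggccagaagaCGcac
Hoxa10, chr6:52202419-52202478, 4140 bases upstream, log2 ratio -1.86: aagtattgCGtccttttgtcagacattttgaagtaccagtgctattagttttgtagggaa

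Of the central genes, Hoxa5, which acts in lung development, had 1.58 ± 1.02 over 26 probes (chr6:52165080-52169624), between -0.14 and 3.69. Hoxa6, a gene of the thoracic region, had 1.33 ± 1.15 over 40 probes (chr6:52169718-52177413), between -1.48 and 3.34. At Hoxa5, 25 of 26 probes were above 0, and at Hoxa6, 34 of 40. The median probe of both genes together was 1.71. The Hoxa6 probes split by position. Far upstream, 12 probes over 2441 bp, bounded as a region of running mean of at least 1, averaged 1.92, and the last probe beyond them, 5390 bp upstream, had 0.69. A dip of 919 bp, in which 6 probes averaged -0.06, parted them from the probes nearer the gene.

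Of the anterior genes, Hoxa2, which patterns the hindbrain and the second branchial arch, had 1.41 ± 1.12 over 55 probes (chr6:52125770-52138070). These ran between -1.58 and 4.16, and 38 were at or above 1. Of its probes, 30 lie in a divergent promoter that the array shares with 5730596B20Rik, a transcript on the other side. The shared probes averaged 1.57 ± 1.18, and the 25 probes naming Hoxa2 alone averaged 1.21. The highest probe of the divergent stretch, at 4.16, holds no CG, and the lowest lies less than 1000 bp from it.
Hoxa2-5730596B20Rik, chr6:52133369-52133413, 5305 bases upstream, log2 ratio 4.16: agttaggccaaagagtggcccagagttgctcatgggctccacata
Hoxa2-5730596B20Rik, chr6:52132546-52132605, 4489 bases upstream, log2 ratio -1.58: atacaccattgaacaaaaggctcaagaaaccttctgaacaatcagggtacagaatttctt

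Hoxa4, which acts in the cervical spine, fell just short of 1. Its 51 probes (chr6:52153164-52163972) averaged 0.84 ± 1.29, with a lowest of -1.70, a median of 0.71 and a highest of 3.67. Of these, 22 were at or above 1 and 36 were above 0. The median IP signal was 898, against a median input signal of 381, the lowest input of the 9 genes, and 11 of its probes had input that was not well above background. The probes within 1000 bp of the start averaged 1.17 ± 1.56 (8 probes), and those inside the gene 0.50 ± 1.39 (9 probes). A run of 3 upstream probes beside a gap averaged -1.19, and the 2 probes just before that run stood at 2.94 and 2.30. Input was not well above background at the probe at 2.30. The highest and the lowest upstream probes show the contrast. The highest had an IP signal of 1190 against an input signal of only 80, and the lowest 370 against 1022.
Hoxa4, chr6:52156064-52156123, 1220 bases upstream, log2 ratio 3.67: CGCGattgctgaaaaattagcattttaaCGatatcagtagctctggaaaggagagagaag
Hoxa4, chr6:52160013-52160072, 5169 bases upstream, log2 ratio -1.70: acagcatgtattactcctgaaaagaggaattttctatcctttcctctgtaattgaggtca

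Hoxa3, needed for thymus and parathyroid, was the exception, at -0.48 ± 1.16. This value rests on 8 probes, against 25 to 55 for each of the other 8 genes. The probes fall into 2 pieces with 11166 bp between them, a stretch that holds the Hoxa4 probes. The 3 probes inside the gene, 12050, 11318 and 11200 bp from the start, had 0.11, -1.31 and -2.28. The 5 upstream probes had 0.48, -0.88, -1.35, 1.21 and 0.21, the farthest 598 bp from the start, and averaged -0.06. The probe at 1.21 had the weakest signals, 328 for IP against 121 for input. Input was well above background at all 8 probes. The upstream probes, in order from the start, are given because they decide the value at this start site.
Hoxa3, chr6:52164247-52164303, 18 bases upstream, log2 ratio 0.48: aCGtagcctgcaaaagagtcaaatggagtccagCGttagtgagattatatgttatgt
Hoxa3, chr6:52164383-52164442, 155 bases upstream, log2 ratio -0.88: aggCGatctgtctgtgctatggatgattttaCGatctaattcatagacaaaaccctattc
Hoxa3, chr6:52164598-52164657, 370 bases upstream, log2 ratio -1.35: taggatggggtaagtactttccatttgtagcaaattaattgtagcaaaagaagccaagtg
Hoxa3, chr6:52164729-52164776, 495 bases upstream, log2 ratio 1.21: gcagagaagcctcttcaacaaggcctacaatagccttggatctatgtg
Hoxa3, chr6:52164829-52164882, 598 bases upstream, log2 ratio 0.21: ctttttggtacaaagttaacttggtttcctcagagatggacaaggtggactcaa

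Another Hoxa3 start lay elsewhere. The Hoxa3 promoter window of RefSeq (GRCm38.p6) holds 1 array probe by exact sequence match, and the array names that probe Hoxa6. It begins 79 bases before the RefSeq start and had a log2 ratio of 2.26, with an IP signal of 7916 against an input signal of 1409. The probes beside the start in the array annotation averaged -0.06, and the RefSeq start has a probe above 1. That probe lies within the region of 12 probes with a mean of 1.92 that was described above as far upstream of Hoxa6.

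**Figure D3:**
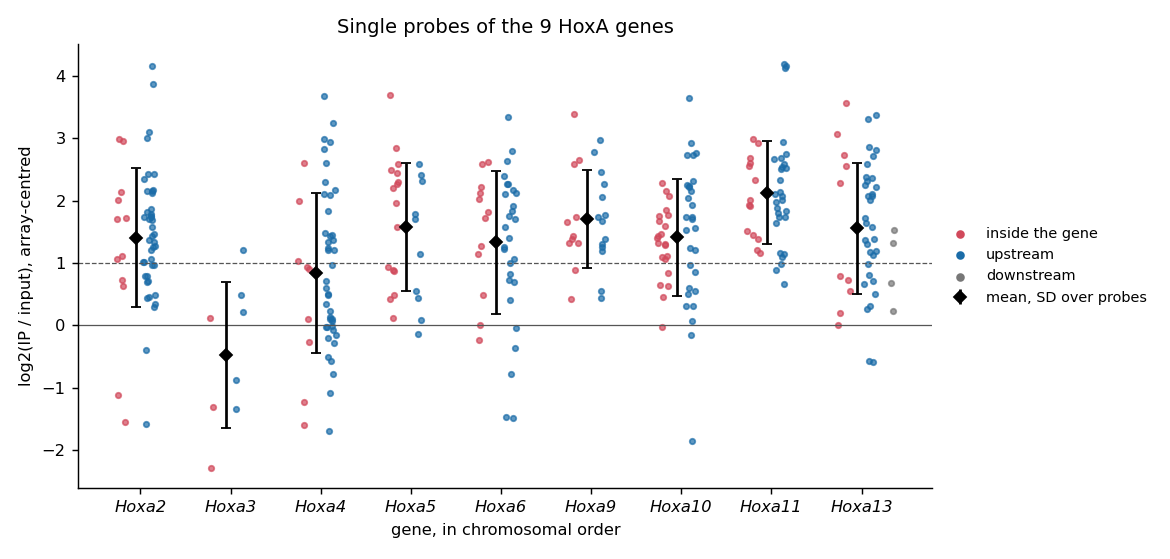
Log2 ratio of IP over input (y axis) of every probe of the 9 HoxA genes in chromosomal order (x axis), inside the gene, upstream and downstream, with the mean and SD over probes as diamonds and bars. All Hoxa11 and Hoxa9 probes are above 0, and 7 genes have means above the dashed line at 1.

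In the order of means, Hoxa11 led, then Hoxa9, Hoxa5, Hoxa13, Hoxa10, Hoxa2, Hoxa6, Hoxa4 and Hoxa3. Each gene lay within 1 SD over probes of its neighbour in this order, except that Hoxa4 exceeded Hoxa3 by 1.31. As this SD describes single probes and not the error of a mean, it cannot decide whether neighbours differ. Gene by gene, the order of levels did not follow the order on the chromosome. By group, 53.5% of anterior, 66.7% of central and 77.1% of posterior probes were at or above 1. These shares were uneven among the genes of a group, and the rise was not tested.

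Over 16 windows of 500 bp from 5500 bp upstream to 2500 bp inside the genes, the mean over the HoxA genes lay between 1.06 and 1.86, with 6 to 9 genes in a window. The windows just upstream and just inside the start had 1.38 and 1.14. In all other genes of the array the window means lay between -0.24 and 0.03. Within the genes, Hoxa5 and Hoxa6 were higher inside than upstream, by 0.47 and 0.22, and Hoxa4 and Hoxa3 were lower inside, with differences of -0.42 and -1.10. The median inside-minus-upstream difference of the 9 genes was -0.12, against 0.06 over 14009 genes with at least 3 probes on each side.

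**Figure D4:**
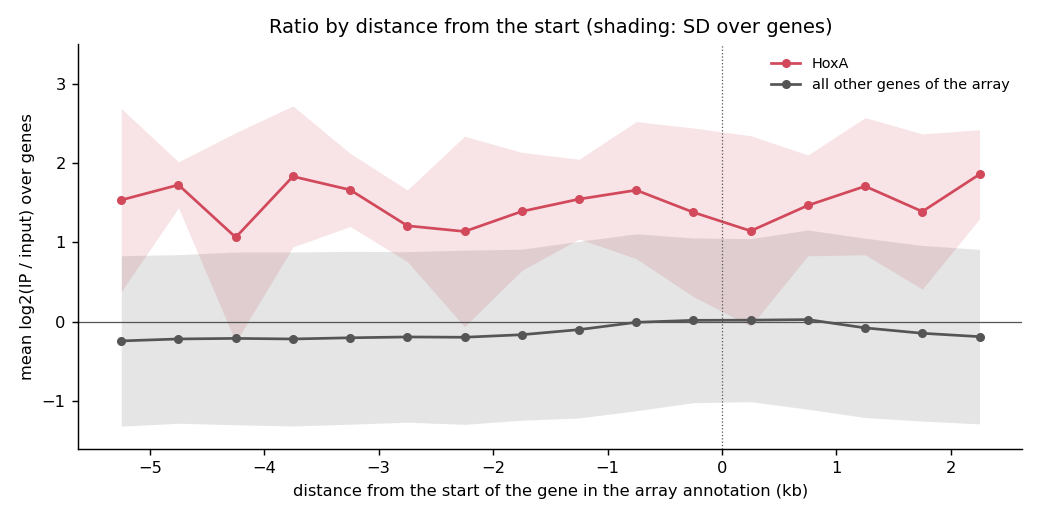
Mean log2 ratio of IP over input (y axis) over genes in windows of 500 bp by distance from the start in kb (x axis), for HoxA genes and all other genes of array 1, with the SD over genes shaded. HoxA stays between 1.06 and 1.86 at every distance, and the other genes between -0.24 and 0.03.

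Base composition of the probes moved with the ratio only weakly. HoxA probes held on average 1.04 CG dinucleotides, against 0.70 over the array, and their GC content was 43.0%, against 42.2%. HoxA probes without a CG had a median of 1.24 (143 probes), those with 1 CG 1.70 (110 probes), those with 2 CG 1.97 (53 probes) and those with 3 or more 1.74 (40 probes). Array probes without a CG had a median of -0.01 and those with 3 or more 0.17. Across the 346 HoxA probes, all of 1 array, the ratio correlated with the number of CG at Pearson r = 0.16 and Spearman rho = 0.21, and with GC content at 0.05 and 0.09, given as descriptions.

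RefSeq promoter windows, 250 bases before and 50 after a start, were found for 8 of the 9 genes, with 9 windows in all because Hoxa10 has 2. The motif counted was CG, which reads the same on both strands, and 92.1% of 32851 windows hold at least 1 in their 250 upstream bases, with a median of 6. The HoxA windows held between 3 upstream at Hoxa9 and 35 at Hoxa13, a number that 2.97% of all windows reach. Array probes matched 10 places in 7 of the 9 windows. The 2 probes in the Hoxa10 window at the internal start of the gene averaged 2.94, and the probe in the Hoxa11 window had 2.59. The probe at the far end of the Hoxa13 window had -0.57, with an IP signal of 6084 against an input signal of 7709, and the 2 probes in the Hoxa5 window averaged 0.26.

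The upstream 250 bases of 4 windows with a probe inside are given, CG in capitals, chosen to show the Hoxa11 and Hoxa10 starts of high ratio, the Hoxa3 start of RefSeq and the CG-dense Hoxa13 start with a low probe.
Hoxa11 promoter, GRCm38.p6, chr6:52245811-52246060, minus strand: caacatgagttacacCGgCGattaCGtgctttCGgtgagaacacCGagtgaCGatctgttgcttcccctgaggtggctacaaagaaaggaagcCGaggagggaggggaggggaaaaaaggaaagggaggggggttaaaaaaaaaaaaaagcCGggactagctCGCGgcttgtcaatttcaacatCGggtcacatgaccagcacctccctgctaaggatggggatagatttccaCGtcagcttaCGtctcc
Hoxa10 promoter, GRCm38.p6, chr6:52234940-52235189, minus strand: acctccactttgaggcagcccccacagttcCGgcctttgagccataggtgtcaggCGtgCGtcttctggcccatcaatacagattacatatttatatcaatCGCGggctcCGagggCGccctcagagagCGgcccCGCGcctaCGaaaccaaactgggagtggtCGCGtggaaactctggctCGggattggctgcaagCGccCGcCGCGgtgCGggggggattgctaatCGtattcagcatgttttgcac
Hoxa3 promoter, GRCm38.p6, chr6:52213068-52213317, minus strand: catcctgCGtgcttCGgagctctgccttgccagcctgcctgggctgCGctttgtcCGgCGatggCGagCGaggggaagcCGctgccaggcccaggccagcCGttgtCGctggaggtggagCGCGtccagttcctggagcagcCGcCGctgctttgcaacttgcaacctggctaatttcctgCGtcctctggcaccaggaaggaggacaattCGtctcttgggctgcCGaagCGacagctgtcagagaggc
Hoxa13 promoter, GRCm38.p6, chr6:52260881-52261130, minus strand: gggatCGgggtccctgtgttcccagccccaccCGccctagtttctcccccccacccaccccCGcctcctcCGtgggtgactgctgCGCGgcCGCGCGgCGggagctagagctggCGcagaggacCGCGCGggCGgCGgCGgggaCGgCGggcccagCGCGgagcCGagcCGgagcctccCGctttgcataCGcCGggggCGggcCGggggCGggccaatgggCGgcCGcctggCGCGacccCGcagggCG

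Noncoding neighbours inside the cluster had means within the range of the 9 Hox genes. The probes naming 5730596B20Rik alone averaged 1.76 ± 1.03 (33 probes). The gene of the microRNA mmu-mir-196b, which is known to target Hox mRNAs, lies between Hoxa9 and Hoxa10 and had 5 probes with a mean of 1.83 ± 1.08. The probe over its start had 3.09, and those 129, 321, 621 and 914 bp upstream had 2.71, 1.71, 0.44 and 1.19. The mature microRNAs of this gene follow (RefSeq, GRCm38.p6, minus strand), with the seed, bases 2 to 8, in capitals.
mmu-miR-196b-5p: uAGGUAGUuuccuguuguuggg
mmu-miR-196b-3p: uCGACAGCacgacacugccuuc

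The sides of the cluster had different values. Evx1, a homeobox gene 42068 bp beyond the last Hoxa13 probe, had 1.56 ± 1.02 over 46 probes, with 31 at or above 1. Scap2 (now Skap2, an adaptor protein of Src family kinases) was the nearest gene outside the cluster on the Hoxa2 side, 144759 bp away. It had -0.65 ± 1.48 over 30 probes, with 2 at or above 1, 12 above 0 and a lowest of -4.81. The median probe was 1.41 at Evx1 and -0.03 at Scap2, so the typical Scap2 probe lay near the array median.

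The other Hox clusters had values in the same range, and with no replicates the differences between clusters could not be tested. At least 1 was reached by 7 of 9 HoxA genes, 6 of 7 HoxB genes, 8 of 8 HoxC genes and 5 of 8 HoxD genes. The share over all genes was 1.99%. The median gene had 1.41 in HoxA, 1.73 in HoxB, 1.32 in HoxC and 1.40 in HoxD. By single probes, 67.3% were at or above 1 in HoxA and 52.0% in HoxD on the same array. On array 2, where 21.7% of all probes passed, the shares were 74.6% in HoxB and 62.3% in HoxC. Hoxb3 at 2.15 and Hoxd4 at 0.31 were the highest and the lowest genes of the other clusters. Hoxa11 was higher than Hoxc11 and Hoxd11, which lay between 1.41 and 1.84. Hoxa5 at 1.58 was below Hoxb5 and Hoxc5, both at 1.73, by less than its SD over probes. By its 8 probes under the array annotation, Hoxa3 was the lowest of its group, below Hoxd3 at 0.52 and Hoxb3. The probe beside its RefSeq start, at 2.26, carries the name Hoxa6 and is not part of that mean.

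The lists of genes that act with or on HoxA had lower medians, although Meis2 exceeded every HoxA gene. Of 9 Hox cofactor genes, 2 were at or above 1, Meis2 at 2.31 and Meis1 at 1.08, and 1 was at or below -1, Pbx2 at -1.13, with a median of 0.41. Meis and Pbx proteins bind DNA together with Hox proteins. Of 8 measured upstream regulators, the Cdx genes and retinoid receptors, 1 was at or above 1, Cdx2 at 1.02, and the median was 0.08. Cdx2 had an SD over probes of 1.90, and its probes averaged 0.31 upstream and 2.66 inside the gene. Of 10 Polycomb and Trithorax genes, 1 was at or above 1, Bmi1, which codes for another subunit of Polycomb repressive complex 1, at 1.90 over 12 probes, and Rnf2, the gene of Ring1B itself, had -0.06. Of 8 pluripotency genes 0 were at or above 1 and of 9 fibroblast genes 1 was, the growth factor receptor gene Pdgfra at 1.66. The share over all genes was 1.99%, so a count of 0 of 8 does not set the pluripotency genes apart. The assay measures no RNA, so these promoter values do not check which cells were present.

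**Figure D5:**
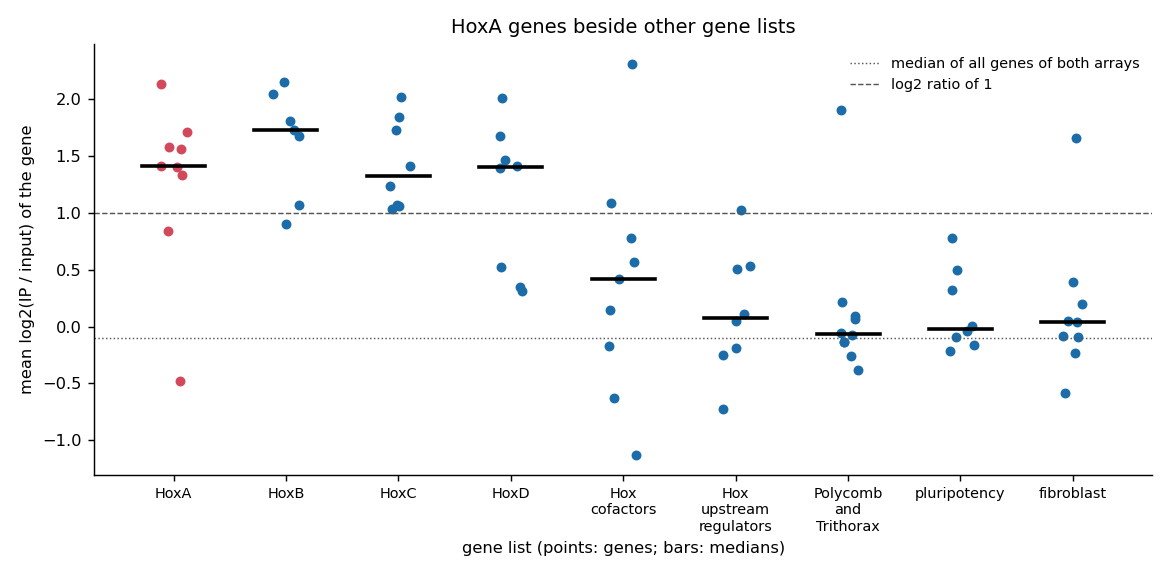
Mean log2 ratio of IP over input of each gene (y axis) in the HoxA cluster and in 8 other lists (x axis), with medians as bars, a dashed line at 1 and a dotted line at the median of all genes. The 4 Hox clusters have medians between 1.32 and 1.73, and the other lists between -0.07 and 0.41.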

How the data were processed

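The study's 2 arrays were scanned and quantified by the authors in Agilent Feature Extraction, version 9.1.3.1 by their headers. Per the file headers, the deposited processed signals are intensity values with background subtracted and dyes normalized, with very dim spots at a surrogate (floor) value. The deposited log10 ratio (red over green) was not used for the values. The deposited series table holds log2 ratios of mean signals, which matched the scanner values to within 5.0e-05. Its medians were not centred.

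The value used was log2 of red (IP) over green (input) processed signal, minus the median probe of the array (0.23 on array 1 and 0.16 on array 2), without control spots and without 141 and 17 outlier probes. A gene is the mean of at least 3 probes naming it, alone or in a divergent pair, under the array's own gene name. The SD over all probes was 1.33 on array 1 and 1.44 on array 2. Distances to starts were given in the file of array 1. On array 2 the start was set between upstream and inside probes. At least 1 counted as called, with no test for want of replicates. Python 3.11.15, pandas 2.3.3, R 4.3.3 and limma 3.58.1 were used. The steps were tested on simulated data.

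The members, lists and rules were chosen with earlier results of these data known. The genes named are the 9 members, the transcripts between them, the nearest gene outside the cluster on each side, and list members at the ends or past 1. Rnf2, Hoxd3 and the other paralogues of named members were added after their values were seen. 1 further gene annotated in the cluster is not reported here. Alternatives were loess within array, normexp correction with an offset of 50, the series table, no centring, leaving out dim, floor-value or shared probes, GC correction, the median over probes, probes near the start, and other thresholds and windows.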

Additional observations from a re-analysis of the deposited data

How the results depend on the processing

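The 7 HoxA genes at or above a mean of 1 became 8 under normexp background correction, without centring, with the centred series table and with probes within 1000 bp of the start, in each case by Hoxa4, at 1.03, 1.07, 1.00 and 1.17. The count was 7 under loess, without dim or floor-value probes, with GC-corrected ratios, medians over probes, and without shared or downstream probes, the last chosen after seeing the data. A threshold of 1.5 left 4 of the 9 genes, and 0.5 gave 8. The share of all genes past these thresholds was not computed, so the counts have no background beside them. Of 99 gene values over 11 alternatives, all 99 kept their sign and moved by less than the SD over the gene's probes, and 4 crossed 1. That SD is the scatter of single probes and no error of the mean, so staying within it does not show stability. Hoxa3 stayed between -0.48 and -0.02, and Hoxa11 between 2.02 and 2.56. The share of all genes at or above 1 was 2.99% without centring and 8.10% with probes within 1000 bp of the start. Under the other alternatives at this threshold it lay between 2.03% (GC-corrected ratios) and 2.64% (normexp). The bases in regions of high running mean were 22931 with a window of 250 bp and 30330 with a running mean of at least 1.5, in place of 51160. The cause of these shifts beyond the narrower rules themselves was not tested. No paired analysis was possible because each gene was on 1 array of 1 immunoprecipitation. For the same reason no array could be left out. Hoxa4 had 11 probes of dim input, and without them its mean was 0.83. Hoxa3 rests on 8 probes.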
